A study of Mus musculus with 3 samples.

Results

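The BMP signalling and Id genes are 10 mouse genes that span a signalling route from ligand to target: the ligand Bmp4, the receptors Bmpr1a and Bmpr2, the signal carriers Smad1, Smad4 and Smad5, and the target genes Id1, Id2, Id3 and Id4. They were found by matching the transcript accession of every probe that was not a control to these gene symbols. The 10 genes had 14 probes, out of 20660 named genes and 55681 probes on the array. The cells were J1 mouse embryonic stem cells (mESCs) of the strain 129S4/SvJae, a line taken from the inner cell mass of the blastocyst, which carried no transgene or mutation named in the labels. All 3 samples received 1 µM PD0325901 (PD), an inhibitor of the kinase MEK, and were taken after 24 h. Their medium held 1000 U/mL of leukemia inhibitory factor (LIF), a cytokine that keeps mESCs undifferentiated. The cells were grown on gelatin without feeder cells, in Knockout Serum Replacement in place of serum. Each sample was hybridised in 1 colour to 1 Agilent array. The study asked which genes respond to PD. The 3 samples are replicates of 1 group and cells without PD were not analysed here, so nothing below is an effect of PD, and no p-value was computed.

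Bone morphogenetic proteins (BMPs) are secreted dimers that bring type II and type I receptor kinases together at the cell surface. The type II receptor phosphorylates the type I receptor, which phosphorylates Smad1 and Smad5. These bind the common partner Smad4, enter the nucleus and switch on targets, of which the Id genes are the best known. Id proteins have a helix-loop-helix domain but no DNA-binding region, so they hold E proteins away from DNA and restrain lineage programmes that depend on basic helix-loop-helix (bHLH) factors. In mESCs, BMP and its Id targets are known to sustain self-renewal together with LIF and STAT3, and ERK signalling is known to work against this state.

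The processed signal is the intensity of a spot after the scanner software subtracted its background. The level is the log2 of that signal minus the 75th percentile of the array, so a level of 0 is the 75th percentile. Detected means that the scanner software flagged the spot well above background on all 3 arrays, unless fewer are named. Signals of different probes depend on the probe sequence as well as on the RNA, so the genes were not ranked by signal.

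The 3 arrays had similar brightness. The 75th percentile of the signal was 551, 511 and 527 on replicates 1, 2 and 3, the lowest signal well above background was 10.1, 11.4 and 10.3, and no spot was saturated. Replicate 2 held 187 non-uniform spots, against 25 and 8 on replicates 1 and 3, but no spot of the 14 probes carried such a flag on any array. All 8 embryonic stem cell markers were detected, Pou5f1, Nanog, Sox2 and Esrrb among them. Pou5f1 had signals of 11265, 16872 and 10239 and was thus highest on replicate 2. Of 8 fibroblast markers 5 were detected, but Lum and Postn were detected on no array and Col3a1 on 1. All 8 primitive endoderm markers were detected too, but with a median level of -2.72, against 4.67 for the stem cell markers. Lama1 had the highest level of them, 4.21. Of all named genes 72.7% were detected, so detection alone says little about a cell type. In RNA from whole cultures, fewer cells of a type and less RNA per cell cannot be told apart.

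All 10 genes were detected by their brightest probe. Over the whole array 72.7% of named genes were detected in the same way. Of the 14 probes 13 were detected, against 60.3% of all probes, and the exception was a second probe of Bmp4. Only 27235 of all 55681 probes were matched to a named gene, as the 14 were. The share over the matched probes alone was not taken, so the 60.3% is not a like set. The median level of the 10 genes was 0.29, with 6 of 10 above the 75th percentile of the array. The median over all named genes was -1.16, and over the detected ones 0.61.

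**Figure D1:**
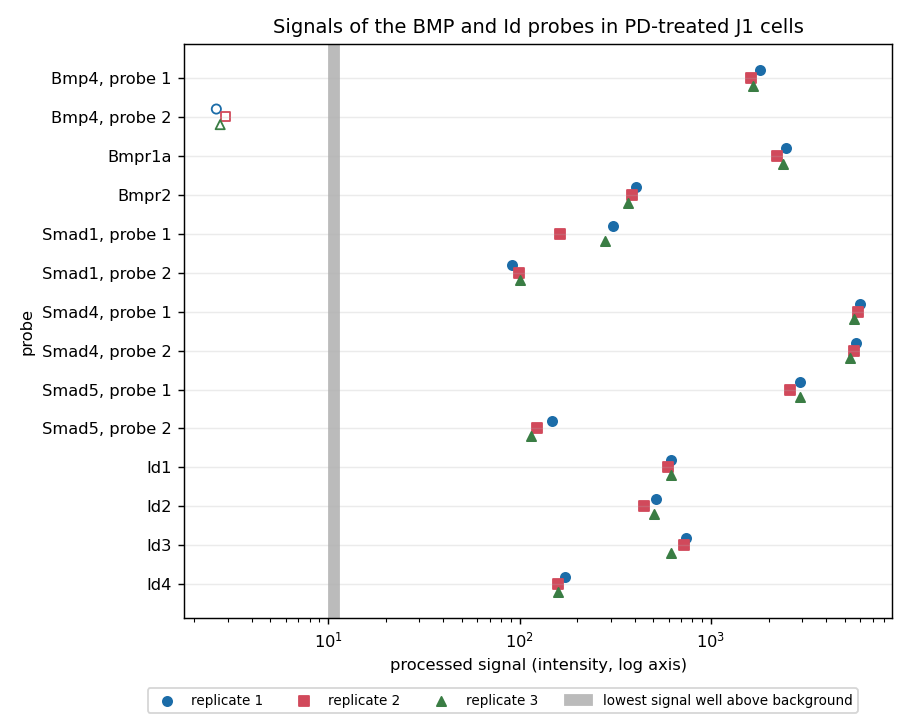
Processed signal (log axis) of the 14 probes of the 10 genes in 3 samples of PD-treated J1 mESCs, with 1 point per array, filled where the probe was detected on all 3 arrays and open where it was detected on none. Probe 1 is the brighter probe of a gene, and the grey band spans the lowest signals well above background, 10.1 to 11.4. All points of 13 probes lie to the right of the band and those of Bmp4 probe 2 to the left, while Smad1 probe 1 is the only probe with 1 array clearly apart.

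Bmp4 is the ligand that acts on the early embryo and on cultured mESCs. Its probe 1 had signals of 1792, 1627 and 1649 on replicates 1, 2 and 3, a mean of 1689 ± 89.7 (SD, n = 3) and a level of 1.67 ± 0.03 (SD, n = 3). Replicate 1 was the highest, by at most 0.28 times the combined error that the scanner software gives for the 2 spots. Its probe 2 had signals of 2.61, 2.93 and 2.73 and was on no array well above background. The raw median of that spot was 18 on each array, where the local background was 17, 19 and 18. Both probes carry accessions of Bmp4 transcripts, so the statement that Bmp4 was detected rests on probe 1 alone. A split of this kind was found for 974 of the 5476 genes with more than 1 probe (17.8%). In the RefSeq annotation of GRCm38.p6, Bmp4 overlaps the long noncoding RNA genes Gm15217 and Gm15222, and the brighter of 2 probes for Gm15217 had signals of 35.9, 34.2 and 43.2.

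Other BMP ligands covered the range from clear signal to background. Of 15 ligand genes on the array, 7 (46.7%) were detected: Bmp4, Bmp6, Bmp7, Bmp8a, Bmp8b, Gdf3 and Gdf5. Bmp7, which acts through the same Smads as Bmp4, had signals of 497, 485 and 480 and a level of -0.12 ± 0.04 (SD, n = 3). Bmp8b, known from germ cell specification, had signals of 56.9, 53.5 and 53.0. Bmp2, the closest relative of Bmp4, had signals of 16.5, 14.1 and 10.9, at the edge of detection, and was well above background on 2 of 3 arrays. Bmp3 and Gdf7 were likewise detected on 1 and 2 arrays, and Bmp5, Bmp10, Bmp15, Gdf2 and Gdf6 on none.

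Bmpr1a encodes the type I receptor that carries most BMP4 signalling in mESCs. Its only probe had signals of 2475, 2215 and 2366 and a level of 2.15 ± 0.03 (SD, n = 3). Bmpr2 encodes the type II receptor that is specific for BMPs. Its signals were 406, 385 and 366, with a level of -0.46 ± 0.06 (SD, n = 3). Neither receptor differed between arrays by more than the scanner error, and the largest difference, between replicates 2 and 3 for Bmpr2, was 0.56 times the combined error of the 2 spots.

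Of the 7 BMP receptor genes, 6 were detected (85.7%), and the exception was the type I receptor gene Bmpr1b. Its brighter probe had signals of 20.2, 14.2 and 13.2 and was well above background on 1 array only. The alternative type I receptor gene Acvr1 had signals of 1324, 1255 and 1224 for its brighter probe. The type II receptors shared with activin were both detected, Acvr2a with signals of 222, 189 and 180 for its brighter probe and Acvr2b with 20764, 19255 and 19765. The level of Acvr2b was 5.23, and its highest and lowest levels were less than 0.01 log2 units apart.

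Smad4 is the partner shared by the BMP and the TGF-β and activin branches. Its 2 probes had signals of 6016, 5822 and 5588 and of 5710, 5570 and 5320. Their mean levels were 3.46 ± 0.05 and 3.39 ± 0.06 (SD, n = 3), and the gap between them was 0.07 log2 units. The arrays differed by at most 0.53 combined scanner errors for both. Over the 3142 genes with 2 detected probes the median gap was 1.96, and 97.3% had a gap at least as large as that of Smad4.

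Smad5 is 1 of the receptor-activated Smads. Its probe 1 had signals of 2928, 2599 and 2912, with a level of 2.41 ± 0.06 (SD, n = 3). Its probe 2 had signals of only 148, 124 and 115, with a level of -2.05 ± 0.15 (SD, n = 3). The gap between both was 4.45 log2 units, and 14.9% of the genes with 2 detected probes had one at least as large. Both were detected, so they do not disagree on that, but the level of Smad5 depends on the probe chosen: the mean over both was 0.18.

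Smad1, the other receptor-activated Smad of the set, gave the largest difference between the arrays. Probe 1 had signals of 308, 162 and 279, a mean of 250 ± 77.6 (SD, n = 3), with replicate 2 below both others. On the level scale replicate 2 was 0.78 log2 units below the mean of the other 2 arrays, and the range over the arrays was 0.82. It was 4.0 combined scanner errors from replicate 1 and 3.62 from replicate 3. Of 1684 detected probes with a mean level within 0.25 log2 units of it, 21 (1.25%) had a range at least as large.

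The second Smad1 probe did not share the low value. Probe 2 had signals of 91.5, 98.8 and 101, so replicate 1 was the lowest, and its range was 0.22 log2 units. The gap between the probes was 1.75 and 1.47 log2 units on replicates 1 and 3 and 0.71 on replicate 2. Without replicate 2 the SD of the level of probe 1 was 0.06 instead of 0.45, and the level was -0.88 instead of -1.14. Around its spot, within 5 rows and 5 columns, 67 other detected probes had a median difference of 0.01 log2 units between replicate 2 and the mean of the other arrays, and none differed by more than 1. The raw median of the spot, before the background was subtracted, was 341, 181 and 289. Whether the spot or the sample differed on replicate 2 was not tested.

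**Figure D2:**
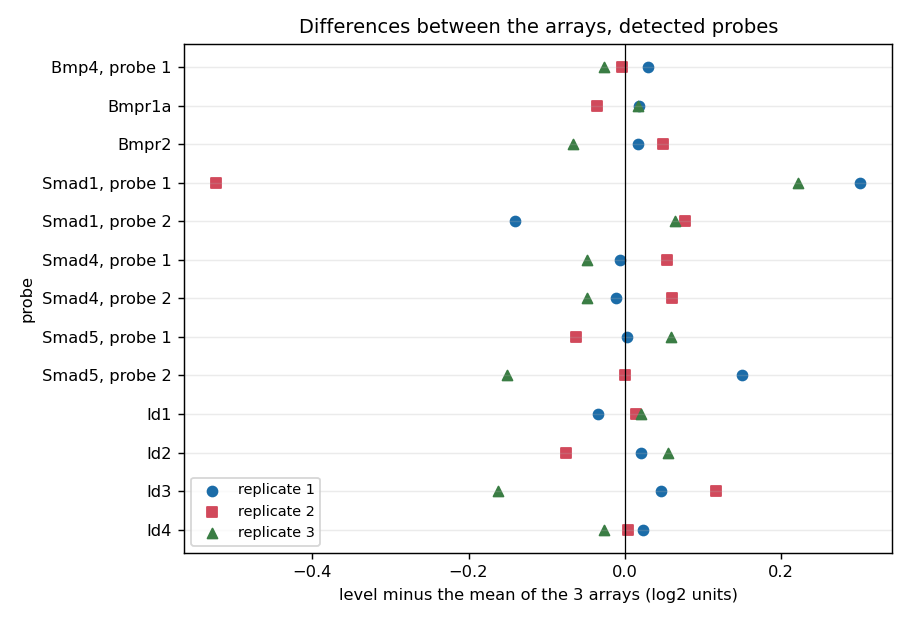
Level on each array minus the mean of the 3 arrays (log2 units) for the 13 detected probes, 1 point per array. Smad1 probe 1 on replicate 2 lies farthest from 0, Smad1 probe 2 has replicate 1 as its lowest array, and among the remaining probes Smad5 probe 2 and Id3 spread most.

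The remaining Smad genes include the inhibitory ones, which BMP signalling itself is known to induce. Smad7 had signals of 3309, 2954 and 2982 and a level of 2.54 ± 0.04 (SD, n = 3). Smad6, which acts mainly on the BMP branch, had signals of 318, 324 and 299 and a level of -0.75 ± 0.09 (SD, n = 3). Smad9, the third receptor-activated Smad of the BMP branch, had signals of 2.36, 18.8 and 2.52 and was well above background on replicate 2 alone. With Smad2 and Smad3 of the activin branch, 7 of 8 Smad genes were detected (87.5%).

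The Id genes were detected throughout, each by a single probe. Id1 had signals of 618, 594 and 615, with a level of 0.20 ± 0.03 (SD, n = 3). Id2 had signals of 514, 446 and 503, with a level of -0.12 ± 0.07 (SD, n = 3) and replicate 2 as the lowest array. Id3 had signals of 743, 724 and 615, with a level of 0.39 ± 0.15 (SD, n = 3). Id1 and Id3 are often used as readouts of BMP in mESCs. The arrays of Id1 differed by at most 0.27 combined scanner errors, and those of Id3, lowest on replicate 3, by at most 1.37. Id4 had signals of 173, 158 and 159, with a level of -1.70 ± 0.03 (SD, n = 3). Of the probes with a mean level within 0.25 log2 units, 89.5% had a range at least as large as that of Id1, 56.8% as that of Id2, 11.3% as that of Id3 and 95% as that of Id4. Id4 overlaps the long noncoding RNA gene A330033J07Rik in the annotation, for which no probe was matched.

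The sequences upstream of the Id genes are shown because Smad complexes are known to act on them through GC-rich elements. RefSeq promoters (GRCm38.p6) of 8 of the 10 genes were used, among them 3 of the 4 Id genes. The 250 bases before each start site were searched on both strands. Entries of the 10 genes on a chromosome that was set aside were left out. No promoter of Id1 or Smad4 was among those used. The lines give chr12:25096093-25096342 (minus strand) for Id2, chr4:136143572-136143821 (plus strand) for Id3 and chr13:48260866-48261115 (plus strand) for Id4, each from 5′ to 3′ along the gene and ending at the base before the start. Capitals mark GGCGCC, a GC-rich Smad site that reads the same on both strands.
Id2: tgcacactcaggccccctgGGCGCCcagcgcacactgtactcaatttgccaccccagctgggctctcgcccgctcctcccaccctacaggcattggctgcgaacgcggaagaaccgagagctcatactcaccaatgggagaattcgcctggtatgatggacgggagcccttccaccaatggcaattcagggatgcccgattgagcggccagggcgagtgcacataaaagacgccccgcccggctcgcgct
Id3: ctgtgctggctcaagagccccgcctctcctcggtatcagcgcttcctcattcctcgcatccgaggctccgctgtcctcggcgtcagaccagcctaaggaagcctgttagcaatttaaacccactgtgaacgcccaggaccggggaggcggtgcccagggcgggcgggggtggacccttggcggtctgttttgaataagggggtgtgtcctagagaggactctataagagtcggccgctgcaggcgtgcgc
Id4: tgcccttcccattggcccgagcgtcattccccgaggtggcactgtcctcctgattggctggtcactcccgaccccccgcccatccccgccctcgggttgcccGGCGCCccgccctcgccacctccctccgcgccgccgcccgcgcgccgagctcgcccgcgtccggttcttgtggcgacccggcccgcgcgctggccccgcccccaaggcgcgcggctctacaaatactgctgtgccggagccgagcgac

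Counting back from -1, the base before the start site, the motif began at -231 upstream of Id2 and at -148 upstream of Id4, and the letters were not in the window of Id3. Among the other genes it began at -198 upstream of Bmpr1a, at -105 upstream of Bmpr2 and at -19 from 1 of 3 start sites of Smad5, so 5 of 8 genes and 5 of their 10 promoters held it. It occurred in 9.59% of all 32851 promoters of this length and in 26.1% of the 9178 with a GC content of at least 60%. The promoters of the genes had GC contents of 60% to 78.8%, above the median of 52.4% for all promoters. The short Smad box GTCT, which does not overlap this motif, was in 6 of the 10 promoters and in 82.9% of all promoters. The 10 promoters are not all separate sequences, since 3 belong to Smad5. Overlapping windows among these 3 counted the same GTCT match more than once. The longer BMP response element, GGCGNC followed by any 5 bases and GTCT, was in none of the 10 promoters and in 0.192% of all promoters. With an element this rare, finding none in 10 promoters says little. Sequence farther upstream and any promoter of Id1 were not searched, so the genes may hold the element elsewhere. TATAAA, the TATA box, was in 12.4% of all promoters and in none of the 10. A match of letters does not show that a Smad was bound, and binding was not measured here.

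Other direct targets of BMP signalling were detected to different extents. Of 15 target genes, 12 were detected (80.0%), against 72.7% of all named genes. The 12 include Id1, Id2, Id3, Smad6 and Smad7, which were already reported above as detected. Dusp9, a phosphatase that acts on ERK and is induced by BMP in mESCs, had signals of 3469, 3484 and 3292 and a level of 2.69 ± 0.07 (SD, n = 3). Bambi, a decoy receptor that BMP induces in many cell types, had signals of 2.37, 2.65 and 2.44 and was well above background on no array. Hand1 was also detected on no array and Atoh8 on 1, while Msx1, Msx2, Tlx2, Gata2, Dlx5 and Hey1 were detected on all. Of these, Gata2 had signals of only 27.2, 23.8 and 26.9 and Dlx5 of 27.8, 28.3 and 15.8. The lowest signals well above background were 10.1 to 11.4.

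The E proteins that Id proteins bind were all detected. Tcf3, which encodes E2A, had signals of 3960, 3763 and 3978 for its brighter probe. Tcf4, which encodes E2-2, had signals of 3289, 3420 and 3545, again for its brighter probe. Tcf12, which encodes HEB, had signals of 1136, 698 and 1059 for the brighter of its 2 probes, both of which were detected. That probe was thus lowest on replicate 2, 2.92 combined scanner errors from the array farthest from it. Of detected single-spot probes, 10.5% had arrays more than 2 combined scanner errors apart. Whether the other Tcf12 probe was also lowest on replicate 2 was not examined. Of 10 bHLH genes that Id proteins bind or restrain, 8 were detected (80.0%). The exceptions were Neurog2 and Myod1, drivers of neurons and muscle, which were detected on no array.

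Secreted antagonists hold BMP ligands away from their receptors. Of 15 antagonist and decoy genes, 9 were detected (60%): Nog, Chrd, Fst, Fstl1, Fstl3, Nbl1, Twsg1, Bmper and Dand5. Noggin (Nog) had signals of 105, 115 and 95.2, and chordin (Chrd) had 107, 106 and 116. Follistatin (Fst), better known as an inhibitor of activin, had 315, 287 and 279. Grem1 had signals of 2.24, 2.54 and 2.25, on no array well above background, and Sost, Sostdc1 and Bambi were also detected on none and Cer1 on 1.

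**Figure D3:**
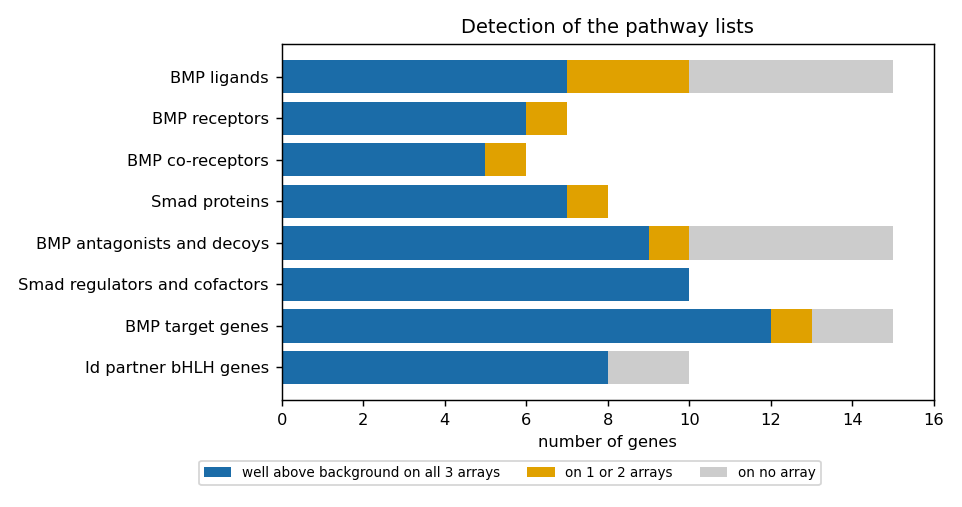
Number of genes of 8 BMP pathway lists that were well above background on all 3 arrays, on 1 or 2 arrays, or on no array, counted by the brightest probe of a gene. The bars for ligands and for antagonists have the longest grey parts, 5 of 15 genes each, and all 10 Smad regulators and cofactors were detected.

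Over the 8 lists, 62 of 83 genes were detected (74.7%), and 53 of the 74 that are not among the 10 genes (71.6%), close to the 72.7% of all named genes. Detection was lower than this share in the ligand and antagonist lists and higher in all other lists, where it ran from 80% to 100%. The ligand, receptor, Smad and target lists include some of the 10 genes, all of which were detected. Each list is small, with 6 to 15 genes, so 1 gene changes its share a lot. The lists were not compared by a test.

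The median SD of the 13 detected probes was 0.06 log2 units, with 0.03 as the lowest (Id4) and 0.45 as the highest (Smad1 probe 1). The median over all detected probes was 0.09, but the spread falls as the level rises. Each of the 13 was therefore set beside the detected probes within 0.25 log2 units of its level. The median SD of those probes had a median of 0.07 over the 13 comparisons, and the share of those probes with a range at least as large had a median of 53.3%. None of the 13 probes had a range over 1 log2 unit, which 1.85% of all detected probes had, and only Smad1 probe 1 had one over 0.5. It was the only 1 of the 13 probes with 2 arrays more than 2 combined scanner errors apart, against 10.5% of detected single-spot probes. The scanner error was at most 10.3% of the signal for all 13 probes and nearly the same share for each. For these probes the count in scanner errors therefore restates the range in other units and is not separate evidence.

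**Figure D4:**
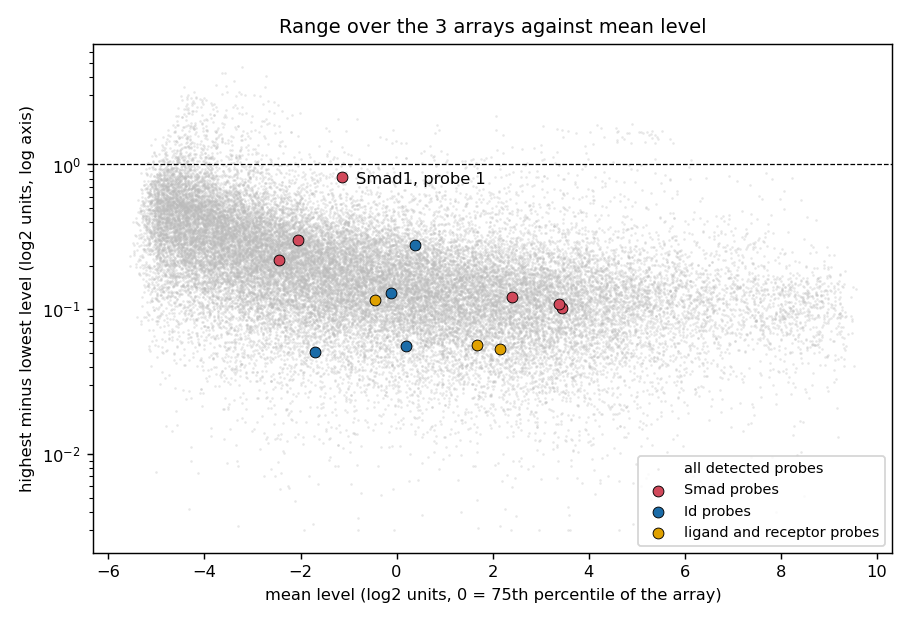
Highest minus lowest level over the 3 arrays (log2 units, log axis) against mean level (log2 units, 0 is the 75th percentile of the array) for the 13 detected probes and, in grey, for 33474 detected probes of the array. Ranges below 0.003 are drawn at 0.003 and the dashed line marks 1 log2 unit. The grey cloud falls as the level rises, and Smad1 probe 1 lies near its upper edge with a range of 0.82, while the other 12 probes lie at or below 0.30.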

How the data were processed

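RNA of 3 samples was hybridised to 1-colour Agilent arrays. Per the file headers, the authors made the spot intensities with Agilent Feature Extraction 10.7.3.1 (10.7 per the labels), which subtracted the background, removed trends, gave the lowest spots small positive values and supplied each processed intensity with its own error. The detection and outlier flags were deposited in the same files. The authors also deposited a table of log2 values whose normalization is not stated, and it was used only as an alternative.

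The level, its zero and the detection rule were as given above, with at least 50% of the spots of a probe flagged on an array. All 14 probes had 1 spot per array. Accessions without versions were matched to RefSeq genes of GRCm38.p6, which named 27235 of 55681 probes. The genes and lists were chosen with earlier results of these data known. Named were all 10 genes with every probe, list genes by detection, and values for 19 list genes chosen together with the lists. A gene of the antagonist list is not reported here. Values of Pou5f1, Lama1, Eng, Ski, Skil, Bmp6, Gata2, Dlx5 and Hjv were given after they had been seen. Marker lists were for stem cells, fibroblasts and primitive endoderm. The steps behind the range limit were run on simulated data, where 200 of 55480 probes were shifted by 1.5 log2 units: 100% of these and 0% of the others passed it. All simulated probes had the same small noise and the shift exceeded the limit, so this outcome was set by the simulation. It checks the calculation only and not how the limit behaves on real spots, where 1.85% of detected probes passed it. Alternatives were other centring, quantile normalization, normexp with an offset of 50 (limma 3.58.1, R 4.3.3), the deposited table, other detection rules, the mean over probes and leaving out each replicate. Python 3.11.15 with pandas 2.3.3 and numpy 2.4.6 was used. Each mean and SD rests on 3 arrays, which limits its precision.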

Additional observations from a re-analysis of the deposited data

How the results depend on the processing

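All 10 genes and 13 of 14 probes were detected under each of the detection rules tried and without each replicate. The number of list genes detected was 62, and it was 72 with the flag for positive and significant signals, 65 where 2 arrays sufficed, and 62 to 64 without a replicate. The median SD of the probes ran from 0.05 for the deposited table to 0.07 after centring on the median of each array, and from 0.04 to 0.08 without a replicate. No probe had a range over 1 log2 unit under any alternative. Levels of the 10 genes stayed within 1 SD under quantile normalization and in the deposited table. Which array was lowest for a probe changed where the arrays were close together. With centring on the median it changed for Bmp4 probe 1, both Smad4 probes and Id4. It changed for Id1 and Id4 with normexp, and for Id4 in the deposited table. The SD of Smad1, 0.45, was 0.06 without replicate 2. Normexp moved 7 of 10 levels, and the mean over detected probes moved those of Smad1 (to -1.79) and Smad5 (to 0.18). Centring on the median, or on the percentile over detected probes, sets another zero and moved all 10. The comparison of probes with 10 spots was not run, since none of the 14 probes had them. Normexp started from the median spot signal. No paired analysis was possible because there was 1 group only, and no second one to pair it with.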

Other observations

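Co-receptors and intracellular regulators of the Smads were counted in the pathway lists above, and their genes are given here. Of 6 co-receptor genes, 5 were detected (83.3%): Rgma, Hjv, Eng, Tgfbr3 and Neo1, while Rgmb was well above background on 2 arrays. Endoglin (Eng), a co-receptor best known from endothelial cells, had signals of 645, 341 and 582. Replicate 2 was the lowest array, as for Smad1 probe 1, and lay 3.98 combined scanner errors from the array farthest from it. The gene was chosen after its values were seen, and the cause was not tested. All 10 regulators and cofactors of the Smads were detected, among them the ubiquitin ligase genes Smurf1 and Smurf2, the corepressor genes Ski and Skil, and Zfp423, a zinc finger cofactor of the BMP Smads. By the brightest probe of each gene, the levels of the regulators and cofactors ran from -2.02 for Ski to 2.40 for Skil.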
